A study of Drosophila melanogaster with 20 samples.

Results

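Late embryonic neurons of Drosophila melanogaster were compared, by small RNA sequencing, with the cells of embryos of the same age that lacked the neuronal marker Elav. The comparison used 4 of the 20 libraries of the series, chosen by their labels: 2 elav-positive libraries from cells that bound the stain for Elav, and 2 elav-negative libraries from cells that did not. All 4 came from embryos 18 to 22 h after egg laying, whose dissociated cells had been fixed in 4% formaldehyde, stained and sorted by flow cytometry before the crosslinks were reversed. No genotype, strain or transgene is given in the labels. The duplicates are described there as biological, and the p-values rest on the spread between duplicates pooled over the 10 groups of the series, with 10 residual degrees of freedom. Elav, an RNA-binding protein of neuronal nuclei, marks neurons as a whole and not one type of neuron. The elav-negative fraction can hold every other cell of the late embryo, such as glia, muscle, epidermis, gut, fat body and blood cells.

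MicroRNAs are small RNAs cut from hairpin precursors that guide Argonaute proteins to messenger RNAs and lower their output. In flies, as in vertebrates, some of them are made mainly in neurons and others mainly in muscle, epithelia or the early embryo. Small RNA libraries also hold snoRNAs, which guide the modification of ribosomal and spliceosomal RNA, tRNAs, and short fragments of messenger RNAs, and all of these were counted here. The libraries had 12786775 and 12976949 counts in elav-positive cells, and 15622487 and 14212914 counts in elav-negative cells. MicroRNA hairpins took 23.6% and 15.1% of them in elav-positive cells, and 14.8% and 12.6% in elav-negative cells. Levels are CPM (counts scaled to a library total of 1e6), on hairpin counts for hairpins and on all other counts for the remaining rows, after TMM scaling, which sets libraries to a common level by a trimmed mean of ratios. A level is therefore relative to the other RNAs of its kind, and, in bulk libraries, fewer cells with an RNA and less of that RNA per cell cannot be told apart.

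The sort marker behaved as labelled. Fragments of elav stood at 271 and 283 CPM in the elav-positive libraries, against 18.2 and 35.8 CPM in the elav-negative libraries (log2 fold change 3.36 ± 0.35, adjusted p = 2.97e-06, edgeR's quasi-likelihood test). Both elav-positive libraries were well above both elav-negative ones, in which elav fragments were low but present. Of 17 neuron genes, 16 had more fragments in the elav-positive libraries, where 8.83% of all rows other than hairpins were higher and 5.24% lower, and Rbp9, an Elav relative, did not pass the test (5.7 and 3.11 CPM in elav-positive against 3.29 and 4.06 CPM in elav-negative libraries, log2 fold change 0.26, adjusted p = 0.894). The summed level of the 17 was 3049 and 2457 CPM in the elav-positive libraries and 123 and 177 CPM in the elav-negative libraries. Fragments of repo, the transcription factor of glia, were low in both fractions, at 4.61 and 6.35 CPM in elav-positive against 3.95 and 5.37 CPM in elav-negative libraries (log2 fold change 0.24, adjusted p = 0.737). Among the hairpins, elav-positive library 1 needed a scaling factor of 1.08 and library 2 one of 1.82, against 0.787 and 0.942 for the elav-negative libraries. At these factors elav-positive library 1 lay above library 2 in 36 of 36 hairpins called higher, 19 of 22 called lower and 68 of the 90 not called. The part of this offset in the results was not tested. Without elav-positive library 1 the median hairpin moved by -0.35 on the log2 scale, and without library 2 by 0.28. The fractions did not overlap in any called hairpin, nor in 64.9% of all hairpins tested, but those values carry the offset too.

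Of 237 hairpins, 148 had enough counts to be tested. Cells positive for Elav had 36 at a higher and 22 at a lower level, at a Benjamini-Hochberg adjusted p below 0.05, which is 24.3% and 14.9% of those tested and 39.2% in all. Over all 148 the median log2 fold change was 0.38. It was 3.15 for the hairpins called higher, which ranged between 1.39 and 6.41, and -2.37 for those called lower. The hairpins called higher made up 47.5% and 42.0% of the hairpin counts of elav-positive cells, against 4.34% and 6.78% in elav-negative cells. Those called lower made up 29.3% and 35.2% in elav-positive cells, against 83.2% and 77.8% in elav-negative cells. The fractions did not overlap for 96 of the 148 hairpins (64.9%), 53 of them with elav-positive cells above (35.8%) and 43 below (29.1%).

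The split between directions moved with the scaling. It was 30 higher and 38 lower with DESeq2, 30 and 34 with relative log expression factors, 44 and 17 with total hairpin counts, and 17 and 42 or 41 and 19 with another library as the TMM reference. With factors from all rows of a library, hairpins and others together, none passed, 32 had an unadjusted p below 0.05, and the median hairpin moved by 0.84 on the log2 scale. Under the 7 scalings on hairpin counts every called hairpin kept its sign, and 17 of the 36 higher and 17 of the 22 lower hairpins passed in all 7. The 24 that missed at least 1 were mir-10, mir-1001, mir-1004, mir-1010, mir-1012, mir-137, mir-13a, mir-13b-1, mir-13b-2, mir-278, mir-284, mir-2c, mir-4969, mir-965, mir-971, mir-981, mir-990, mir-998 and mir-iab-4 among the higher hairpins, and mir-125, mir-184, mir-311, mir-956 and mir-958 among the lower ones. Without 1 of the 4 libraries 16 of the higher and 14 of the lower hairpins passed every time.

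**Figure D1:**
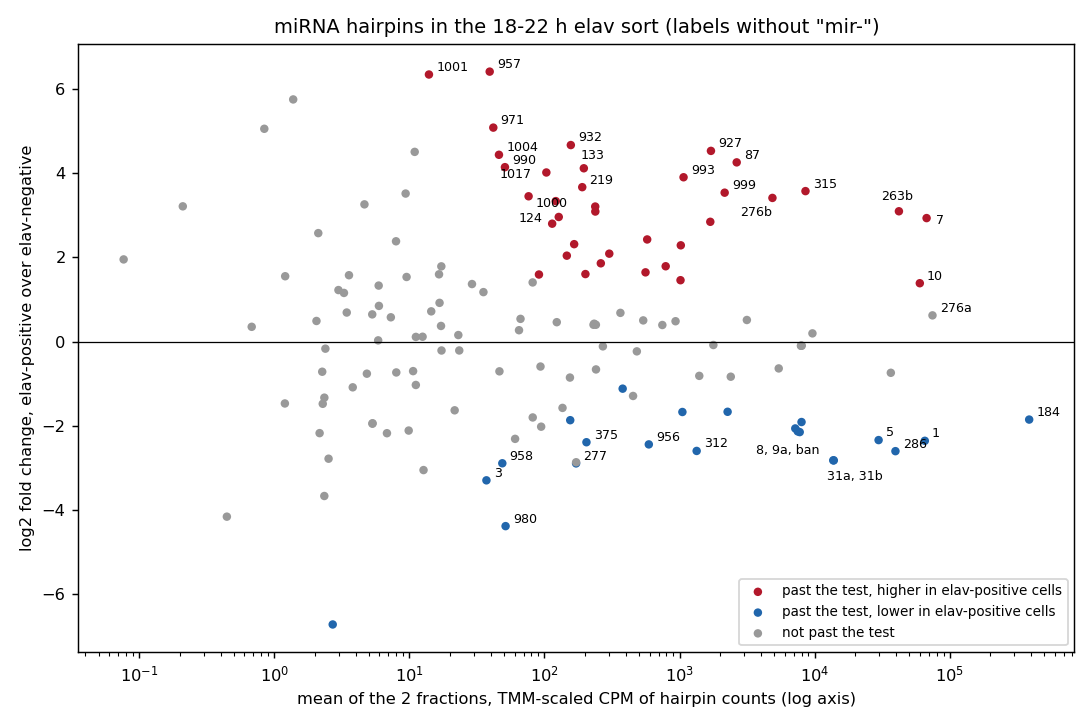
Each point is 1 tested hairpin, with the mean of the elav-positive and elav-negative CPM on a log axis and the log2 fold change of elav-positive over elav-negative cells on the vertical axis. The 36 hairpins called higher are in red and the 22 called lower in blue. mir-184, mir-276a, mir-1, mir-7 and mir-10 are the abundant ones at the right, and mir-184 and mir-1 lie below 0.

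The list of 11 miRNAs known from the nervous system was chosen with earlier results of these data known. Of the 11, 10 were higher in elav-positive cells and 1, mir-958, was lower, beside 24.3% higher and 14.9% lower over all hairpins tested. Their median log2 fold change was 3.45, beside 0.38 over all hairpins tested, and their summed level was 31339 and 16246 CPM in the elav-positive libraries and 1955 and 2278 CPM in the elav-negative libraries. mir-315, which acts on Wingless signalling in flies, was the most abundant of them. It lies at 3L:18860971-18861054, plus strand (BDGP6/dm6, the build of all coordinates here), and had 21438 and 10142 CPM in the elav-positive libraries, against 1219 and 1431 CPM in the elav-negative libraries (log2 fold change 3.57 ± 0.52, adjusted p = 4.93e-05). The lower elav-positive library was still far above both elav-negative ones. mir-927 (X:15965947-15966038, minus strand) had 4209 and 2339 CPM in the elav-positive libraries, against 112 and 171 CPM in the elav-negative libraries (log2 fold change 4.53 ± 0.61, adjusted p = 2.27e-05). It was past the test in every fit without 1 library.

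mir-124 (2L:17566370-17566469, plus strand), a miRNA of neurons from worms to mammals, stood at 258 and 195 CPM in the elav-positive libraries, against 30.7 and 27.3 CPM in the elav-negative libraries (log2 fold change 2.96 ± 0.54, adjusted p = 0.000351). Its elav-negative values were low and close together, and the fractions were apart. mir-932, which lies in an intron of the neuroligin gene Nlg2 at 2L:6902062-6902152, plus strand, had 355 and 248 CPM in the elav-positive libraries, against 8.22 and 15.4 CPM in the elav-negative libraries (log2 fold change 4.67 ± 0.94, adjusted p = 0.000785). mir-219, which in vertebrates is known from oligodendrocytes, had 388 and 318 CPM in the elav-positive libraries, against 25.8 and 29.7 CPM in the elav-negative libraries (log2 fold change 3.67 ± 0.88, adjusted p = 0.00273). Both rose in elav-positive cells with no overlap. mir-1000, which in flies lowers the vesicular glutamate transporter VGlut, stood at 184 and 96.1 CPM in the elav-positive libraries, against 15.3 and 10.1 CPM in the elav-negative libraries (log2 fold change 3.45 ± 0.87, adjusted p = 0.00396). The remaining members were mir-971 (113 and 49 CPM in elav-positive against 0 and 4.75 CPM in elav-negative libraries, log2 fold change 5.08), mir-987 (3.34), mir-190 (2.85) and mir-137 (3.21), all higher in elav-positive cells. mir-958 was lower there, at 14.4 and 8.69 CPM in elav-positive against 60.8 and 111 CPM in elav-negative libraries (log2 fold change -2.89, adjusted p = 0.0487). mir-137 (adjusted p = 0.0592 to 0.078) did not pass with elav-positive library 1 or elav-negative library 2 left out. mir-971 (adjusted p = 0.115 to 0.162) did not pass with elav-positive library 1 or elav-negative library 1 left out. mir-1000 (adjusted p = 0.051) did not pass with elav-negative library 2 left out. mir-958 (adjusted p = 0.0769 to 0.244) did not pass with any 1 of the 4 libraries left out.

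Outside that list the 3 largest fold changes belonged to mir-957, mir-1001 and mir-1004, which had few counts in elav-negative cells. mir-957 (3L:22518196-22518291, minus strand) had 107 and 48.2 CPM in the elav-positive libraries, against 0.548 and 1.19 CPM in the elav-negative libraries (log2 fold change 6.41 ± 1.57, adjusted p = 0.00369). That is 522 counts in elav-positive against 3 in elav-negative cells, a ratio of 89.4 with a 95% counting interval of 30.4 to 435. mir-1001, in an intron of the microtubule-associated protein gene tau at 3R:27642466-27642555, minus strand, had 36.2 and 19.1 CPM in the elav-positive libraries, against 0 and 0.594 CPM in the elav-negative libraries (log2 fold change 6.34 ± 2.19, adjusted p = 0.03), or 186 counts in elav-positive against 1 in elav-negative cells, a ratio of 95.6 (95% counting interval 16.9 to 3794). These intervals cover counting error alone, and reads without molecular identifiers are not independent molecules. mir-1004 had 112 and 63.9 CPM in elav-positive against 3.29 and 4.75 CPM in elav-negative libraries (log2 fold change 4.44, adjusted p = 0.0207), mir-990 118 and 75.1 CPM in elav-positive against 5.48 and 5.34 CPM in elav-negative libraries (log2 fold change 4.14, adjusted p = 0.0272) and mir-1017 227 and 162 CPM in elav-positive against 12.1 and 11.9 CPM in elav-negative libraries (log2 fold change 4.02, adjusted p = 0.00437). In each of them the lower elav-positive library was above the higher elav-negative one, which was a condition for naming them.

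mir-87 (2L:9950418-9950516, minus strand), which flies need for the regrowth of injured dendrites, combined a high level with a large difference. It had 6906 and 3164 CPM in the elav-positive libraries, against 266 and 260.1 CPM in the elav-negative libraries (log2 fold change 4.26 ± 0.43, adjusted p = 1.56e-06). The elav-negative libraries nearly coincided, while the elav-positive libraries lay far above them and apart from each other. mir-999, in an intron of the synaptic scaffold gene CASK, stood at 5569.8 and 2377 CPM in elav-positive against 409.8 and 274 CPM in elav-negative libraries (log2 fold change 3.54, adjusted p = 0.000414). mir-993, encoded in the Antennapedia complex of Hox genes, stood at 2443 and 1571 CPM in elav-positive against 102 and 166 CPM in elav-negative libraries (log2 fold change 3.90, adjusted p = 0.000238). mir-133 is a muscle miRNA in vertebrates, where it is made together with mir-1. Here it was higher in elav-positive cells, at 416 and 324 CPM in the elav-positive libraries, against 16.4 and 26.1 CPM in the elav-negative libraries (log2 fold change 4.12 ± 1.05, adjusted p = 0.00437), and all 4 values were far below those of mir-1. mir-957 (adjusted p = 0.0574), mir-133 (0.0666) and mir-1017 (0.0544) did not pass with elav-negative library 1 left out. mir-1001 (adjusted p = 0.0516 to 0.179) and mir-990 (0.0525 to 0.152) did not pass with any 1 of the 4 libraries left out. mir-1004 (adjusted p = 0.0973 to 0.151) did not pass with elav-positive library 1 or elav-negative library 1 or 2 left out. The 15 hairpins with the largest change in each direction are drawn by library.

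**Figure D2:**
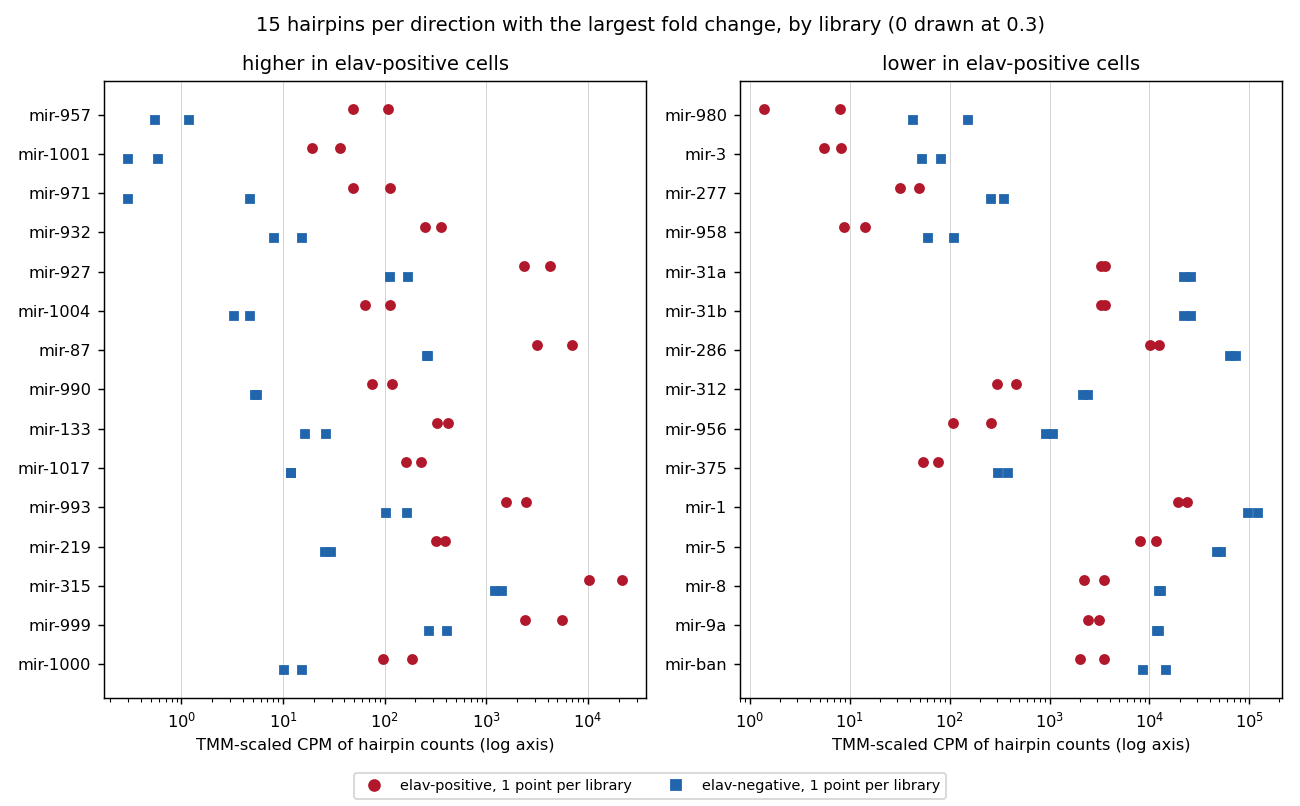
Points are the 2 elav-positive libraries (red circles) and the 2 elav-negative libraries (blue squares) for 15 hairpins higher and 15 lower in elav-positive cells, in TMM-scaled CPM on a log axis with 0 drawn at 0.3. In each of the 30 hairpins the fractions are apart, which was a condition for choosing them. mir-957 and mir-1001 lie below 2 CPM in elav-negative cells, and mir-1, the most abundant hairpin of the right panel, lies at 97700.5 and 121279 CPM there.

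The most abundant hairpins changed places between the fractions. The first 5 took 74.3% and 71.6% of hairpin counts in elav-positive cells, and 79.4% and 73.7% in elav-negative cells. mir-184, a miRNA known from oogenesis and early development, led in both. It took 21.4% and 25.2% of hairpin counts in elav-positive cells, against 56.8% and 46.4% in elav-negative cells. On the scaled counts mir-184 (2R:13329402-13329501, minus strand) had 197723 and 138547 CPM in the elav-positive libraries, against 721918 and 492153 CPM in the elav-negative libraries (log2 fold change -1.85 ± 0.53, adjusted p = 0.009). Both elav-positive values were below both elav-negative values. mir-7, which steadies cell fate decisions in sensory organs and photoreceptors, held rank 2 in elav-positive library 1 and rank 3 in library 2. mir-7 had 165550.0 and 72996 CPM in the elav-positive libraries, against 14236 and 16979 CPM in the elav-negative libraries (log2 fold change 2.93 ± 0.56, adjusted p = 0.000453). It took 17.9% and 13.3% of hairpin counts in elav-positive cells.

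mir-263b, which protects sensory bristle cells from apoptosis, was among the first 5 of elav-positive cells too. mir-263b (3L:15843406-15843495, minus strand) had 110423 and 40266 CPM in the elav-positive libraries, against 7926 and 9696 CPM in the elav-negative libraries (log2 fold change 3.10 ± 0.65, adjusted p = 0.00101). mir-10, encoded between the Hox genes Dfd and Scr, had 93894 and 79958 CPM in the elav-positive libraries, against 27341 and 39136 CPM in the elav-negative libraries (log2 fold change 1.39 ± 0.48, adjusted p = 0.0296). These were the highest values of the Hox complex miRNAs, and the fractions were apart in both hairpins. mir-276a, linked in flies to memory, had 119363 and 61495 CPM in the elav-positive libraries, against 64288 and 53148 CPM in the elav-negative libraries, and its difference did not pass (log2 fold change 0.62 ± 0.36, adjusted p = 0.199). Its near copy mir-276b did, at 11398 and 6417 CPM in elav-positive against 919 and 753 CPM in elav-negative libraries (log2 fold change 3.41, adjusted p = 2.27e-05). The mature miRNAs of these near copies are close in sequence, and fractional counting of reads with several matches could divide reads between them. In elav-negative cells mir-1, mir-286, mir-276a and mir-5 followed mir-184 in library 1, and mir-bft (mir-263a) took the fifth place in library 2. mir-bft had 35436 and 19453 CPM in elav-positive against 39291 and 52457 CPM in elav-negative libraries and did not pass (log2 fold change -0.74, adjusted p = 0.366). mir-184 (adjusted p = 0.0769 to 0.0856) did not pass with elav-positive library 2 or elav-negative library 1 left out. mir-10 (adjusted p = 0.0557 to 0.199) did not pass with any 1 of the 4 libraries left out.

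Of 9 tested hairpins linked to sensory organs and neural precursors, mir-7 and mir-263b were higher in elav-positive cells, and mir-9a, mir-9b and mir-279 were lower. Their share higher is near the 24.3% of all hairpins, where 14.9% were lower, and their median log2 fold change was -0.64, beside 0.38 over all. mir-9a, which limits the number of sensory organ precursors through senseless, stood at 3119 and 2450.4 CPM in elav-positive against 12503 and 11932 CPM in elav-negative libraries (log2 fold change -2.13, adjusted p = 0.000453). mir-279, which represses nerfin-1 and so blocks the formation of CO2-sensing neurons, stood at 639 and 364 CPM in elav-positive against 1779.5 and 1417 CPM in elav-negative libraries (log2 fold change -1.67, adjusted p = 0.00066). mir-9b stood at 1476 and 697 CPM in elav-positive against 3659 and 3243 CPM in elav-negative libraries (log2 fold change -1.67, adjusted p = 0.00513). Of the K-box family, whose members hold proapoptotic genes in check, 4 of 9 tested were higher, beside 24.3% of all hairpins, and 5 did not pass. All 9 had a positive fold change, with a median of 0.68 on the log2 scale, beside 0.38 over all 148 hairpins. None of the 9 passed with an elav-positive library of 6 to 8 h as the TMM reference. The 4 were mir-2c (1128 and 815 CPM in elav-positive against 131 and 230.4 CPM in elav-negative libraries, log2 fold change 2.43, adjusted p = 0.000583), mir-13a (509 and 311 CPM in elav-positive against 105 and 121 CPM in elav-negative libraries, 1.86), mir-13b-1 (614 and 363 CPM in elav-positive against 107 and 123 CPM in elav-negative libraries, 2.09) and mir-13b-2 (1057 and 639.6 CPM in elav-positive against 259 and 284 CPM in elav-negative libraries, 1.64). mir-13b-1 and mir-13b-2 give the same mature miRNA from separate loci, so the division of its reads between them is uncertain. Of the 4 Hox complex miRNAs, mir-10, mir-993 and mir-iab-4, which represses Ubx, were higher, beside 24.3% of all hairpins. mir-iab-8 did not pass, and with DESeq2 only 1 of the 4 passed. mir-iab-4 had 170.4 and 103 CPM in elav-positive against 46 and 44.5 CPM in elav-negative libraries (log2 fold change 1.59, adjusted p = 0.0378). mir-9b (adjusted p = 0.0762) did not pass with elav-positive library 2 left out. mir-13b-1 (adjusted p = 0.0687 to 0.0698) did not pass with elav-positive library 1 or elav-negative library 1 left out. mir-13b-2 (adjusted p = 0.0525) did not pass with elav-positive library 1 left out. mir-iab-4 (adjusted p = 0.15 to 0.202) did not pass with elav-positive library 1 or elav-negative library 1 or 2 left out.

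mir-1, the muscle miRNA of animals at large, was the most abundant hairpin lower in elav-positive cells after mir-184. mir-1 (2L:20487441-20487531, plus strand) had 23637 and 19118 CPM in the elav-positive libraries, against 97700.5 and 121279 CPM in the elav-negative libraries (log2 fold change -2.36 ± 0.70, adjusted p = 0.0121). It fell below both elav-negative values in both elav-positive libraries, but it was not missing from them. Of 14 tested muscle genes 5 had fewer fragments in elav-positive cells and 9 did not pass, beside 5.24% lower over all other rows. DESeq2 called 8 lower, and with 1 library left out between 0 and 4 were. The summed level of the 14 was 1666 and 1439 CPM in the elav-positive libraries and 2575 and 2026 CPM in the elav-negative libraries. The muscle genes that passed were Mhc, Mlc2, Act57B, up and sls, which encode parts of the sarcomere, with log2 fold changes of -1.29, -1.57, -1.37, -1.53 and -1.40. No tested muscle gene was at 0 in the elav-positive libraries. Mhc, the myosin heavy chain, had 97.7 and 100 CPM in elav-positive against 283 and 199.8 CPM in elav-negative libraries. The part of muscle cells in the mir-1 difference was not tested. mir-1 (adjusted p = 0.051 to 0.0975) did not pass with elav-positive library 1 or 2 or elav-negative library 2 left out. Mhc (adjusted p = 0.14 to 0.223), Mlc2 (0.0549 to 0.105) and sls (0.093 to 0.118) did not pass with elav-positive library 1 or 2 or elav-negative library 1 left out. Act57B (adjusted p = 0.0611) did not pass with elav-positive library 1 left out. up (adjusted p = 0.0546 to 0.237) did not pass with elav-positive library 1 or elav-negative library 1 or 2 left out. With total counts as the scale, none of the 5 muscle genes passed.

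Hairpins of epithelia and gut were lower or did not pass. mir-31a and mir-31b are near-identical hairpins, and their calls are 1 result: mir-31a (2R:17783795-17783886, minus strand) had 3604 and 3269 CPM in the elav-positive libraries, against 26314 and 22274 CPM in the elav-negative libraries (log2 fold change -2.82 ± 0.43, adjusted p = 7.43e-05). mir-8, which acts on growth through u-shaped in the fat body and on the repressor Atrophin, had 3475 and 2230.4 CPM in the elav-positive libraries, against 12342 and 12973 CPM in the elav-negative libraries (log2 fold change -2.15 ± 0.44, adjusted p = 0.000785). mir-281-1 (1494 and 537 CPM in elav-positive against 2514 and 1055 CPM in elav-negative libraries, log2 fold change -0.81, adjusted p = 0.193) and mir-281-2 (2356 and 1086 CPM in elav-positive against 4062 and 2075 CPM in elav-negative libraries, log2 fold change -0.83, adjusted p = 0.144) did not pass in edgeR with TMM. DESeq2 called both lower, as did edgeR with relative log expression factors, with elav-positive library 1 left out, and with an elav-positive library of 6 to 8 h as the TMM reference. mir-375, an islet miRNA in vertebrates, stood at 76.6 and 54.4 CPM in elav-positive against 302 and 385 CPM in elav-negative libraries (log2 fold change -2.39, adjusted p = 0.00101). mir-ban (bantam), which drives growth and blocks the death gene hid, stood at 3549 and 2006 CPM in elav-positive against 14676 and 8534 CPM in elav-negative libraries (log2 fold change -2.06, adjusted p = 0.000351). mir-31a, mir-31b, mir-8, mir-375 and bantam each passed in every fit without 1 of the 4 libraries.

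The mir-309 cluster, switched on in the early zygote to clear maternal messenger RNAs, was still counted at this age. Its 8 hairpins lie at 2R:19660716-19661774 on the minus strand. Of them 3, mir-3, mir-286 and mir-5, were lower in elav-positive cells, beside 14.9% of all hairpins tested. mir-286 had 12383 and 10041 CPM in the elav-positive libraries, against 72834 and 63376 CPM in the elav-negative libraries (log2 fold change -2.60 ± 0.36, adjusted p = 3.20e-05). mir-5 had 11650.1 and 7985 CPM in elav-positive against 52008 and 47387 CPM in elav-negative libraries (log2 fold change -2.34, adjusted p = 0.000135), and mir-3 had 5.52 and 8.12 CPM in elav-positive against 81.6 and 53.4 CPM in elav-negative libraries (log2 fold change -3.30, adjusted p = 0.000164). Their neighbours mir-4 and mir-6-1, mir-6-2 and mir-6-3 had log2 fold changes of -0.08 and -0.10, -0.10 and -0.10 and did not pass, and mir-309 did not pass at -1.47. These differences between neighbours on 1 transcript were not tested. The mir-310 cluster at 2R:20583752-20585405, whose older members resemble mir-92, had mir-310, mir-311 and mir-312 lower among 5 tested, beside the same 14.9%. mir-312 had 459.8 and 299.5 CPM in the elav-positive libraries, against 2445 and 2151 CPM in the elav-negative libraries (log2 fold change -2.60 ± 0.34, adjusted p = 2.27e-05).

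mir-980, which restrains memory in flies by lowering A2bp1, had the largest drop among hairpins of at least 10 CPM. It had 7.97 and 1.4 CPM in the elav-positive libraries, against 153 and 43.3 CPM in the elav-negative libraries (log2 fold change -4.38 ± 1.5, adjusted p = 0.0267). The elav-negative libraries differed widely from each other, yet the lower one was above both elav-positive values. mir-277, a regulator of branched-chain amino acid breakdown, had 49 and 32.2 CPM in the elav-positive libraries, against 347 and 257 CPM in the elav-negative libraries (log2 fold change -2.89 ± 0.65, adjusted p = 0.00172). Its cluster neighbours mir-34 and mir-317 did not pass. mir-956 stood at 261 and 108 CPM in elav-positive against 918 and 1083 CPM in elav-negative libraries (log2 fold change -2.44, adjusted p = 0.0207) and mir-283 at 4462 and 2260.4 CPM in elav-positive against 10969 and 14305 CPM in elav-negative libraries (log2 fold change -1.91, adjusted p = 0.000475). mir-278, which acts on insulin sensitivity, was higher at 320.4 and 151 CPM in elav-positive against 59.7 and 54.6 CPM in elav-negative libraries (log2 fold change 2.04, adjusted p = 0.0422), a call that DESeq2 did not make, beside 4 of 6 miRNAs of metabolism that did not pass. The let-7 complex, which comes on at metamorphosis, was close to absent. Of its 3 hairpins, mir-125 had no count in elav-positive cells and 19 in elav-negative cells, which is at least 12.3-fold lower at a floor of 3 counts over the fraction. mir-125 lies under the 10 CPM set for named hairpins, and it is given here because its call stands apart at the bottom of the plot, where the fitted value drawn is no measure of its size. mir-980 (adjusted p = 0.0592 to 0.203) did not pass with elav-positive library 1 or 2 or elav-negative library 1 left out. mir-956 (adjusted p = 0.0576 to 0.191) did not pass with elav-positive library 2 or elav-negative library 1 or 2 left out. mir-125 (adjusted p = 0.0859 to 0.188) did not pass with any 1 of the 4 libraries left out. mir-311 (adjusted p = 0.0637 to 0.0756) did not pass with elav-positive library 2 or elav-negative library 1 left out. mir-278 (adjusted p = 0.165 to 0.282) did not pass with elav-positive library 1 or elav-negative library 1 or 2 left out.

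Hairpins within 10 kb of each other on 1 strand were taken as clusters. There were 20 clusters with at least 2 tested members, 58 hairpins in all, and 10 of the 20 had at least 1 called member. No cluster had calls in both directions, which only those with at least 2 called members could show. With TMM, fold changes took both signs in the mir-9c, mir-306, mir-79 and mir-9b cluster (-0.64, 0.43, 0.49 and -1.67), where mir-9b alone was called. DESeq2 and relative log expression factors called mir-9c lower as well. Those factors moved the median hairpin by -0.53 on the log2 scale, which is more than the positive values of mir-306 and mir-79. In 2 clusters every member was called, both times higher: mir-13b-1, mir-13a and mir-2c at 3R:15417408-15417845, and mir-999 and mir-4969 at 3R:21798227-21798671. In the mir-283, mir-304 and mir-12 cluster on the X chromosome the log2 fold changes were -1.91, -2.18 and -2.02, and mir-283 was called. Hairpins of a cluster may share a transcript and are then not independent of each other.

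Many called hairpins sit in introns of genes whose fragments could be tested too. Of the 36 hairpins higher in elav-positive cells, 18 had a tested host gene; for 12 of them a host was higher, for 6 no host passed, and a lower host was not called. Fragments of the 18 host genes had a median log2 fold change of 2.28. The 33 hosts of hairpins not called had a median of 0.42. All rows other than hairpins had a median of -0.19, and 8.83% of them were higher. CASK, host of mir-999 and mir-4969, had fragments at 107 and 88.1 CPM in elav-positive against 6.91 and 11.3 CPM in elav-negative libraries, log2 fold change 3.42, adjusted p = 4.22e-05. tau, host of mir-1001, stood at 56.2 and 57.3 CPM in elav-positive against 5.26 and 7.84 CPM in elav-negative libraries, log2 fold change 3.12, adjusted p = 0.000151. nAChRalpha2, an acetylcholine receptor subunit and host of mir-1017, stood at 20.1 and 15.7 CPM in elav-positive against 2.74 and 1.31 CPM in elav-negative libraries, log2 fold change 3.12, adjusted p = 0.0181. Both libraries of elav-positive cells were above both others in the 3 genes. The other hosts called higher were meru (mir-263b), rhea (mir-190), SKIP (mir-1010), HnRNP-K, mmd, kis, rsh and CG43707. Nlg2, host of mir-932, did not pass (85.9 and 79.9 CPM in elav-positive against 37.9 and 59.1 CPM in elav-negative libraries, log2 fold change 0.77, adjusted p = 0.347). Of 3 hosts of hairpins called lower, Gmap was lower (7.76 and 11.9 CPM in elav-positive against 62.8 and 42.8 CPM in elav-negative libraries, log2 fold change -2.42, adjusted p = 0.000175) and 2 did not pass. Among the 39 tested hairpins with a host and no call, 4 had a host higher, 5 a host lower and 30 a host that did not pass.

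The same sort at 6 to 8 h, early in neurogenesis, gave a like pattern of directions among the called hairpins, from libraries of its own. At that age the calls were 27 hairpins up (18.2%) and 22 down (14.9%) in elav-positive cells, 33.1% of the 148. Its elav-positive library 2 was shallow, with 70156 hairpin counts. Of the 36 hairpins higher at 18 to 22 h, 35 also had a positive fold change at 6 to 8 h, with a median of 3.13, and 21 of them passed there. Of the 22 lower ones, 21 had a negative fold change at 6 to 8 h, with a median of -2.0, and 15 passed. Same signs were not counted over all 148 hairpins, so these counts have no share to be set beside. The exceptions were mir-4969 (log2 fold change 3.09 at 18 to 22 h and -0.30 at 6 to 8 h) and mir-125, which had no count in elav-positive cells at 18 to 22 h and a log2 fold change of 3.24 at 6 to 8 h. The difference between the ages, tested in the same edgeR fit, was past the threshold for 0 of 148 hairpins (0%), although 19 had an unadjusted p below 0.05 and DESeq2 called 7. The lowest unadjusted p was that of mir-7 (0.00228), whose log2 fold change was 2.93 at 18 to 22 h and 0.29 at 6 to 8 h. For mir-87 it was 4.26 at 18 to 22 h and 6.06 at 6 to 8 h, and for mir-957 6.41 at 18 to 22 h and 1.68 at 6 to 8 h. The group mean of elav-positive cells at 18 to 22 h was the highest of the 10 groups of the series for 26 of the 36 hairpins called higher. For the 22 called lower it was the lowest in 7. These hairpins were picked by the level of that same group, and ranks were not taken over all 148, so nothing is read from these counts.

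The elav sort was also set against the repo sort of the same age, in which repo-positive cells, the glia, were compared with repo-negative cells in 4 other libraries. In that sort 3 of 148 hairpins were called by edgeR (2.03%), all higher in repo-positive cells. That count is not firm, with 4 higher and 13 lower by DESeq2, 3 and 8 with relative log expression factors, 20 and 0 with a pros-negative library as the TMM reference, 5 and 11 without the elav replicate 2 libraries of 6 to 8 h, and 3 and 9 with the replicate number as a block. The difference between the log2 fold changes of the 2 sorts passed the test for 28 hairpins (18.9%), with the elav value above in 20 (13.5%) and below in 8 (5.41%). That split moved with the scaling too: it was 22 above and 20 below with DESeq2, 17 and 12 with relative log expression factors, 30 and 4 with total hairpin counts, 16 and 12 with a pros-negative library as the TMM reference, and 3 and 27 with an elav-positive library of 6 to 8 h as the reference. Under the 7 scalings on hairpin counts each of the 28 differences kept its sign, and 7 passed in all 7: mir-87, mir-927 and mir-957 above, and mir-ban, mir-279, mir-286 and mir-252 below. Of the 28, 27 were among the 58 called in the elav sort. mir-87 had a log2 fold change of 4.26 in the elav sort and -0.27 in the repo sort (difference 4.52 ± 0.56, adjusted p = 2.99e-05). For mir-927 it was 4.53 in the elav sort and -0.33 in the repo sort (difference 4.86 ± 0.78, adjusted p = 0.000256), and for mir-993 3.90 in the elav sort and -0.01 in the repo sort (difference 3.91 ± 0.88, adjusted p = 0.0058). In the repo sort the values of all 3 were close to 0. bantam ran opposite ways, with -2.06 in the elav sort and 1.52 in the repo sort (difference -3.58 ± 0.52, adjusted p = 0.00016), and mir-279 had -1.67 in the elav sort and 1.02 in the repo sort (difference -2.69 ± 0.47, adjusted p = 0.000572). mir-252, which edgeR with TMM did not call in the elav sort, had -0.85 in the elav sort and 3.61 in the repo sort (difference -4.46 ± 0.69, adjusted p = 0.000197). DESeq2 and relative log expression factors called mir-252 lower in the elav sort. With 1 of the 8 elav and repo libraries left out, the number of differences called lay between 10 and 22, and mir-87, mir-927, mir-993, mir-276b, mir-ban, mir-279, mir-286 and mir-252 passed each time. It was 10 with elav-negative library 1 left out, 13 with elav-positive library 1 or repo-positive library 2 left out, 15 with elav-negative library 2, 16 with repo-positive library 1 and 17 with repo-negative library 1 left out.

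**Figure D3:**
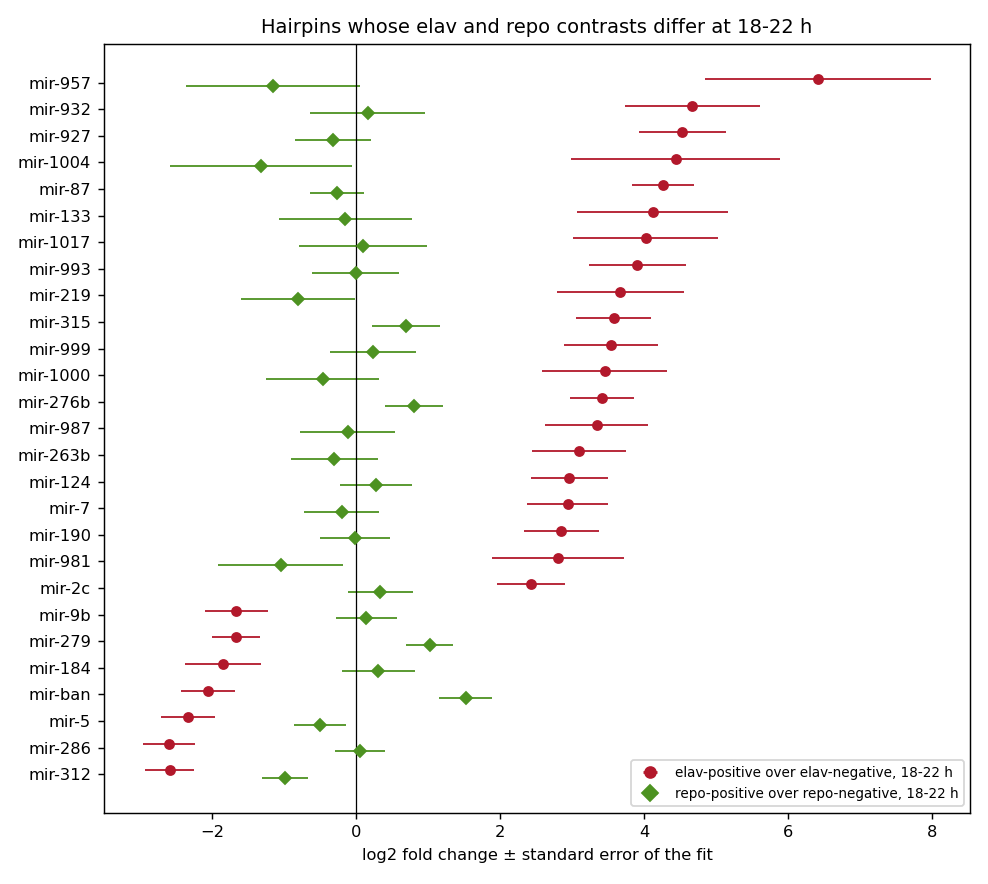
Points are log2 fold changes with the standard error of the fit as bars, of elav-positive over elav-negative cells (red circles) and of repo-positive over repo-negative cells (green diamonds), both at 18 to 22 h. The 27 hairpins shown were called in the elav sort and differed between the sorts, and in the repo sort most of them lie near 0. For bantam (mir-ban), mir-279, mir-286, mir-184 and mir-9b the elav value lies below 0 and the repo value above it, for mir-286 by 0.05 only.

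Outside the hairpins, 17263 rows were counted and 11726 tested. In elav-positive cells 1035 were higher (8.83%) and 615 lower (5.24%), 14.1% in all, around a median log2 fold change of -0.19. Fragments of protein-coding genes made up most of the calls, with 998 higher and 504 lower of 10238 tested. The fractions did not overlap in 7121 rows (60.7%). With total counts as the scale the split was 1221 higher and 290 lower, so that 80.8% of the calls were higher, against 62.7% with TMM. With DESeq2 it was 1264 and 920. These are counts of short fragments and not of whole messenger RNAs. Levels are not corrected for gene length, so they are compared between libraries and not between genes.

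The list of 17 neuron genes had 16 above the elav-negative fraction and past the test, beside 8.83% of all other rows. Fragments of nSyb, the vesicle SNARE of neurons, stood at 123 and 82.4 CPM in the elav-positive libraries, against 1.21 and 1.45 CPM in the elav-negative libraries (log2 fold change 6.26 ± 0.71, adjusted p = 6.74e-06). brp, the scaffold of the active zone, had 299 and 259 CPM in elav-positive against 9.21 and 8.27 CPM in elav-negative libraries (log2 fold change 4.99, adjusted p = 3.25e-07), and Syt1, the calcium sensor of transmitter release, had 192 and 172 CPM in elav-positive against 4.39 and 6.68 CPM in elav-negative libraries (log2 fold change 5.04, adjusted p = 1.38e-05). The fractions were far apart in each. The 16 neuron genes that passed ranged from 1.77 for Syx1A, a SNARE of the plasma membrane that other cells use too, to 6.26 for nSyb, with a list median of 4.79 beside -0.19 over all rows. Snap25, the partner SNARE, had 192 counts in elav-positive against 3 in elav-negative cells, a ratio of 63.0 (95% counting interval 21.2 to 308). Without 1 of the 4 libraries 14 or 15 of the 16 passed. Syx1A (adjusted p = 0.0502 to 0.0592) did not pass with elav-positive library 2 or elav-negative library 1 or 2 left out. Snap25 (adjusted p = 0.0503 to 0.116) did not pass with elav-positive library 1 or elav-negative library 1 or 2 left out.

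Of 17 ion channel genes 13 were higher, beside 8.83% of all other rows, and sei, KCNQ, NaCP60E and Nmdar1 did not pass. para, cac and Rdl are on the list of neuron genes too, so the lists are not independent. para, the voltage-gated sodium channel, had fragments at 308 and 151 CPM in the elav-positive libraries, against 3.07 and 6.53 CPM in the elav-negative libraries (log2 fold change 5.59 ± 0.68, adjusted p = 1.38e-05). Rdl, a GABA receptor subunit, had 194 and 95.1 CPM in elav-positive against 1.53 and 3.77 CPM in elav-negative libraries (log2 fold change 5.79, adjusted p = 6.46e-05), and cac, the calcium channel of synapses, had 328 and 289.5 CPM in elav-positive against 6.58 and 10 CPM in elav-negative libraries (log2 fold change 5.22, adjusted p = 2.25e-06). The elav-negative values were small in all 3. Of 12 tested genes that mark transmitters, 5 were higher, beside the same 8.83%. They were VGlut, the glutamate transporter of vesicles (log2 fold change 4.94), Gad1, which makes GABA (4.63), ChAT, which makes acetylcholine (4.6), Vmat, the monoamine transporter (4.06), and VGAT, the GABA transporter of vesicles (2.87). The 7 genes of dopamine, serotonin, octopamine and tyramine, ple, Ddc, Trhn, Tbh, Tdc2, SerT and DAT, did not pass in edgeR. DESeq2 called SerT (8.01 and 4.36 CPM in elav-positive against 0.11 and 0.871 CPM in elav-negative libraries, log2 fold change 3.67, adjusted p = 0.0665 in edgeR) and Tdc2 (5.46 and 4.98 CPM in elav-positive against 0.767 and 0.58 CPM in elav-negative libraries, log2 fold change 2.92, adjusted p = 0.0666 in edgeR) higher as well. VGlut had 85.9 and 76.4 CPM in elav-positive against 3.84 and 1.31 CPM in elav-negative libraries and ple, which makes the dopamine precursor, had 5.22 and 5.97 CPM in elav-positive against 3.29 and 3.92 CPM in elav-negative libraries (log2 fold change 0.63, adjusted p = 0.756). VGAT (adjusted p = 0.102 to 0.192) did not pass with any 1 of the 4 libraries left out.

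Of 17 axon guidance genes 12 were higher in elav-positive cells, beside 8.83% of all other rows. Their median log2 fold change was 1.66, beside -0.19 over all other rows. robo3, a receptor for the midline repellent Slit, had the largest change, at 92.4 and 88.9 CPM in the elav-positive libraries, against 2.3 and 3.34 CPM in the elav-negative libraries (log2 fold change 5.01 ± 0.63, adjusted p = 1.77e-05). Dscam1, which gives neurites their identity, stood at 191 and 195 CPM in elav-positive against 39.4 and 36 CPM in elav-negative libraries (log2 fold change 2.36, adjusted p = 7.23e-05). Both elav-positive libraries exceeded both others in each. robo2, sli, NetA, comm and Lar did not pass. Among 10 tested genes for RNA-binding proteins of neurons, elav, fne, mub, bru3, Hrb27C and pum were higher, and Rbp9, Syp, Fmr1 and ps did not pass. The sort marker elav, fne and Rbp9 are on the list of neuron genes too. Without 1 library 9 or 10 of the guidance genes and 4 or 5 of the genes for RNA-binding proteins passed.

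**Figure D4:**
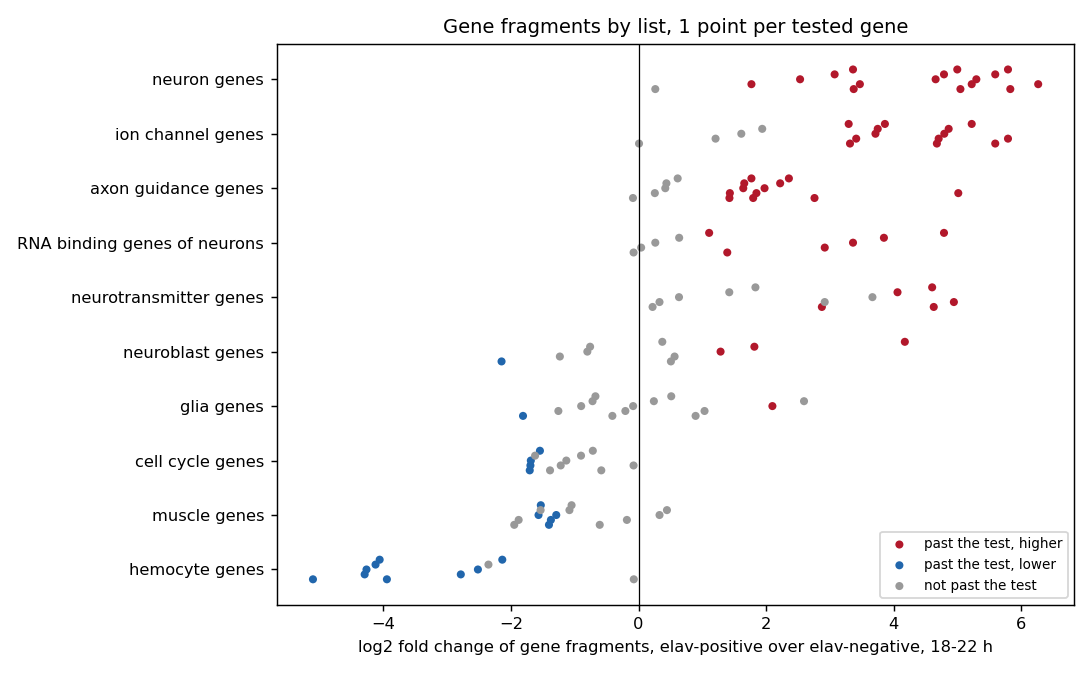
Points are the tested members of each gene list, with the log2 fold change of fragment counts in elav-positive over elav-negative cells on the horizontal axis. Red and blue points passed the test, higher and lower, and grey points did not. Every called neuron, ion channel and transmitter gene lies to the right of 0, every called hemocyte gene to the left, and glia genes lie on both sides.

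Genes of blood cells, the hemocytes, had the lowest median of the gene lists compared. Of 11 tested hemocyte genes 9 were lower in elav-positive cells, beside 5.24% of all other rows, and lz and ush did not pass. Col4a1, a type IV collagen chain that hemocytes secrete, had 128 and 107 CPM in the elav-positive libraries, against 2944 and 1569 CPM in the elav-negative libraries (log2 fold change -4.26 ± 0.55, adjusted p = 2.14e-05). Both elav-positive values were far below the elav-negative ones. The 9 ran from -2.14 for the scavenger receptor gene crq to -5.10 for NimC1, a receptor for phagocytosis, and the list median was -3.94. The summed level of the list was 248 and 218 CPM in the elav-positive libraries and 4924 and 2705 CPM in the elav-negative libraries. In each of 5 lists for other cell types 1 gene passed, in lists of 5 to 8 genes and beside 5.24% lower over all other rows, so nothing is read from these counts: GATAe of 8 gut genes (-4.66), apolpp of 7 fat body genes (-2.39), CrebA of 5 trachea and salivary gland genes (-3.73), Cpr67B of 8 cuticle genes, which had no count in elav-positive cells, and nanos of 6 germline genes (-1.88). All 5 were lower in elav-positive cells. Cpr67B did not pass with DESeq2 or with total counts as the scale, and nanos did not with relative log expression factors or total counts. crq (adjusted p = 0.0602) did not pass with elav-positive library 2 left out. Hml (adjusted p = 0.118 to 0.15) did not pass with elav-positive library 1 or 2 or elav-negative library 1 left out. srp (adjusted p = 0.0705 to 0.128) did not pass with elav-positive library 1 or elav-negative library 1 left out. PPO2 (adjusted p = 0.0604 to 0.0724) did not pass with elav-positive library 1 or 2 left out. Cpr67B (adjusted p = 0.0703 to 0.228) and nanos (0.0544 to 0.303) did not pass with any 1 of the 4 libraries left out.

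Glia and precursor genes had calls in both directions, beside 8.83% higher and 5.24% lower over all other rows. For glia genes, 1 higher and 1 lower of 14 is near those shares, and nothing is read from these counts. Of 14 glia genes, nrv2, a sodium pump subunit of glia and neurons, was higher (131 and 95.2 CPM in elav-positive against 26.3 and 26.4 CPM in elav-negative libraries, log2 fold change 2.10, adjusted p = 0.00127), loco, a regulator of G protein signalling in glia, was lower (8.01 and 8.59 CPM in elav-positive against 26.5 and 31.8 CPM in elav-negative libraries, log2 fold change -1.81, adjusted p = 0.00144), and 12 did not pass. Of 10 neuroblast genes, scrt, a zinc finger factor of the developing nervous system, was higher (136 and 165 CPM in elav-positive against 6.14 and 10.6 CPM in elav-negative libraries, log2 fold change 4.17, adjusted p = 3.15e-06), and so were pros (1.29) and brat (1.82), which act as neural precursors differentiate. insc, which orients precursor divisions, was lower (2.43 and 1.24 CPM in elav-positive against 8.11 and 8.27 CPM in elav-negative libraries, log2 fold change -2.15, adjusted p = 0.00522). The fractions were apart in each of these. Of 12 cell cycle genes CycA, CycB, stg and Cdk1, which drive entry into mitosis, were lower, by log2 fold changes of -1.69, -1.70, -1.69 and -1.55, and all 12 had a negative fold change. pros (adjusted p = 0.169 to 0.184) did not pass with elav-positive library 1 or elav-negative library 2 left out. insc (adjusted p = 0.0883) did not pass with elav-positive library 2 left out. CycA (adjusted p = 0.0575 to 0.256) did not pass with elav-positive library 1 or elav-negative library 1 or 2 left out. CycB (adjusted p = 0.0831) did not pass with elav-positive library 1 left out. Cdk1 (adjusted p = 0.102 to 0.251) did not pass with any 1 of the 4 libraries left out.

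The 12 protein-coding genes with the largest rise were Actbeta, CARPA, nSyb, CG42322, DIP-delta, CG9395, CG8641, Eaat2, Syngr, dpr9, Snap25 and VhaM9.7-a. Actbeta, an activin ligand, had 18.2 and 22.9 CPM in the elav-positive libraries, against 0.219 and 0.145 CPM in the elav-negative libraries (log2 fold change 6.68 ± 1.05, adjusted p = 0.000152). That is 334 counts in elav-positive against 3 in elav-negative cells, a ratio of 110 (95% counting interval 37.2 to 534). Eaat2, a transporter of acidic amino acids, had 195 counts in elav-positive against 3 in elav-negative cells, a ratio of 63.9 (95% counting interval 21.6 to 313). DIP-delta and dpr9, cell surface proteins of families that bind each other, stood at 16.6 and 15.4 CPM in elav-positive against 0.439 and 0 CPM in elav-negative libraries (log2 fold change 5.99, adjusted p = 0.000886) and 29.6 and 15.9 CPM in elav-positive against 0.219 and 0.58 CPM in elav-negative libraries (log2 fold change 5.83, adjusted p = 8.96e-05). Syngr, a protein of synaptic vesicles, stood at 43.3 and 33.2 CPM in elav-positive against 0.219 and 1.16 CPM in elav-negative libraries (log2 fold change 5.83, adjusted p = 0.000638). A lack of overlap between the fractions was a condition for naming the 12 genes. Their elav-negative values were at most 1.45 CPM. CG8641 (adjusted p = 0.074) did not pass with elav-negative library 1 left out. Snap25 (adjusted p = 0.0503 to 0.116) did not pass with elav-positive library 1 or elav-negative library 1 or 2 left out.

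The 12 with the largest drop were CG34437, GstE7, Cht8, NtR, CG15293, PH4alphaSG1, CG10300, PH4alphaSG2, Gr59e, Daao1, p-cup and CG43248. Cht8, a chitinase gene, had 1.7 and 1.74 CPM in the elav-positive libraries, against 119 and 98.4 CPM in the elav-negative libraries (log2 fold change -5.97 ± 0.65, adjusted p = 4.23e-06). Gr59e, of the gustatory receptor family, had 11.9 and 1.49 CPM in the elav-positive libraries, against 361 and 269 CPM in the elav-negative libraries (log2 fold change -5.55 ± 1.02, adjusted p = 0.000713). Daao1, a D-amino acid oxidase gene, stood at 2.43 and 1.99 CPM in elav-positive against 119 and 78.1 CPM in elav-negative libraries (log2 fold change -5.47, adjusted p = 0.0015). The elav-negative libraries were close to each other in these 3 genes. They were not in GstE7, a glutathione transferase gene, at 1.09 and 0.249 CPM in elav-positive against 82.7 and 4.5 CPM in elav-negative libraries (log2 fold change -5.99, adjusted p = 0.00207). PH4alphaSG1 and PH4alphaSG2, relatives of the enzymes that hydroxylate collagen prolines, stood at 0 and 0.498 CPM in elav-positive against 24.9 and 5.51 CPM in elav-negative libraries (log2 fold change -5.86, adjusted p = 0.00599) and 0.485 and 0.249 CPM in elav-positive against 29.8 and 10 CPM in elav-negative libraries (log2 fold change -5.70, adjusted p = 0.00055). GstE7 (adjusted p = 0.312) did not pass with elav-negative library 1 left out. CG15293 (adjusted p = 0.0635 to 0.145) did not pass with elav-positive library 1 or elav-negative library 2 left out. PH4alphaSG1 (adjusted p = 0.0898 to 0.097) did not pass with elav-positive library 1 or elav-negative library 1 left out. CG10300 (adjusted p = 0.0635 to 0.463) did not pass with elav-positive library 1 or 2 or elav-negative library 1 left out.

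snoRNAs and tRNAs depended on what they were scaled against. snoRNAs took 18.6% and 19.5% of the other counts in elav-positive cells, against 23.5% and 28.8% in elav-negative cells. On the scale of all other rows 32 of 249 tested snoRNAs were lower and 0 higher in edgeR, with 112 lower and 0 higher at an unadjusted p below 0.05, and the median log2 fold change was -0.96. DESeq2 called 58 lower and 0 higher. When snoRNAs were scaled on their own counts, 2 were higher and 1 lower, around a median of -0.02. snoRNA:CG31191-a was lower on both scales, at 8.37 and 13.7 CPM in the elav-positive libraries, against 49 and 41.6 CPM in the elav-negative libraries (log2 fold change -2.04 ± 0.35, adjusted p = 0.000431, and -1.19 among snoRNAs). It lies within the span of CG31191, 3R:20912733-20912879, minus strand. The 2 that were higher among snoRNAs guide the modification of the U2 spliceosomal RNA: scaRNA:MeU2-48 (1.25) and scaRNA:MeU2-C41 (1.54). Their change on the scale of all other rows was 0.34 and 0.59.

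The snoRNAs named by size of change were snoRNA:Psi18S-525k, snoRNA:Psi18S-525b, snoRNA:CG31191-a, snoRNA:Psi28S-3327c, snoRNA:Psi18S-1295 and snoRNA:Psi28S-1135a, of which 5 guide pseudouridylation of ribosomal RNA and are named after the base they modify. snoRNA:Psi28S-1135a, within the span of the ribosomal protein gene RpS5a, had 31.8 and 42.6 CPM in the elav-positive libraries, against 95.4 and 150.3 CPM in the elav-negative libraries (log2 fold change -1.72 ± 0.38, adjusted p = 0.00338). snoRNA:Psi28S-3327c, within RpS4, had 12.6 and 30.6 CPM in elav-positive against 76.3 and 100 CPM in elav-negative libraries (log2 fold change -2.03, adjusted p = 0.0015). All 6 were lower in both elav-positive libraries, which was a condition for naming them. snoRNA:Psi18S-525k (adjusted p = 0.0907 to 0.261) did not pass with elav-positive library 1 or elav-negative library 1 or 2 left out. snoRNA:Psi18S-525b (adjusted p = 0.0957 to 0.168) did not pass with elav-positive library 1 or 2 or elav-negative library 2 left out. snoRNA:Psi18S-1295 (adjusted p = 0.113 to 0.155) and snoRNA:Psi28S-1135a (0.0576 to 0.0687) did not pass with elav-positive library 1 or elav-negative library 2 left out. Of 36 rRNA rows and 31 snRNA rows tested none was called, with 4 rRNA rows lower, and 2 snRNA rows higher and 1 lower, at an unadjusted p below 0.05. DESeq2 called 0 rRNA rows and 1 snRNA row.

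Nuclear tRNA rows held few counts, 0.190% and 0.229% of the other counts in elav-positive cells and 0.445% and 0.524% in elav-negative cells. Of 274 tested, 36 were lower and 1 higher on the scale of all other rows, around a median log2 fold change of -1.35. The 1 that was higher, tRNA:Arg-TCG-4-1, stood far from the rest. It had 50.6 and 66.1 CPM in the elav-positive libraries, against 1.97 and 2.47 CPM in the elav-negative libraries (log2 fold change 4.71 ± 1.06, adjusted p = 0.00419, and 6.12 among tRNAs). It lies at 3R:5388228-5388300, plus strand, within the span of the chitin synthase gene kkv on the other strand. When tRNAs were scaled on their own counts, 3 were higher, all of them tRNA:Arg-TCG genes, and 10 lower, 6 of tRNA:Glu-TTC and 4 of tRNA:Pro-CGG, around a median of 0.02. tRNA genes of 1 family are near copies whose reads cannot be assigned with certainty, so the 6 and the 4 are not separate results. tRNA:Pro-CGG-1-1 had 8.73 and 27.1 CPM in the elav-positive libraries, against 70.5 and 229 CPM in the elav-negative libraries (log2 fold change -3.06 ± 0.76, adjusted p = 0.00835). tRNA:Lys-TTT-1-1 had 4 and 8.96 CPM in elav-positive against 36.2 and 67 CPM in elav-negative libraries (log2 fold change -2.99, adjusted p = 0.00107) on the scale of all other rows. tRNA:Arg-TCG-4-1 (adjusted p = 0.0679) did not pass with elav-negative library 1 left out. tRNA:Pro-CGG-1-1 (adjusted p = 0.134 to 0.152), tRNA:Pro-CGG-2-1 (0.179 to 0.193), tRNA:Pro-CGG-2-2 (0.147 to 0.151) and tRNA:Pro-CGG-3-1 (0.118 to 0.145) did not pass with elav-positive library 1 or elav-negative library 2 left out. tRNA:Glu-TTC-1-4 (adjusted p = 0.0793) did not pass with elav-positive library 1 left out.

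**Figure D5:**
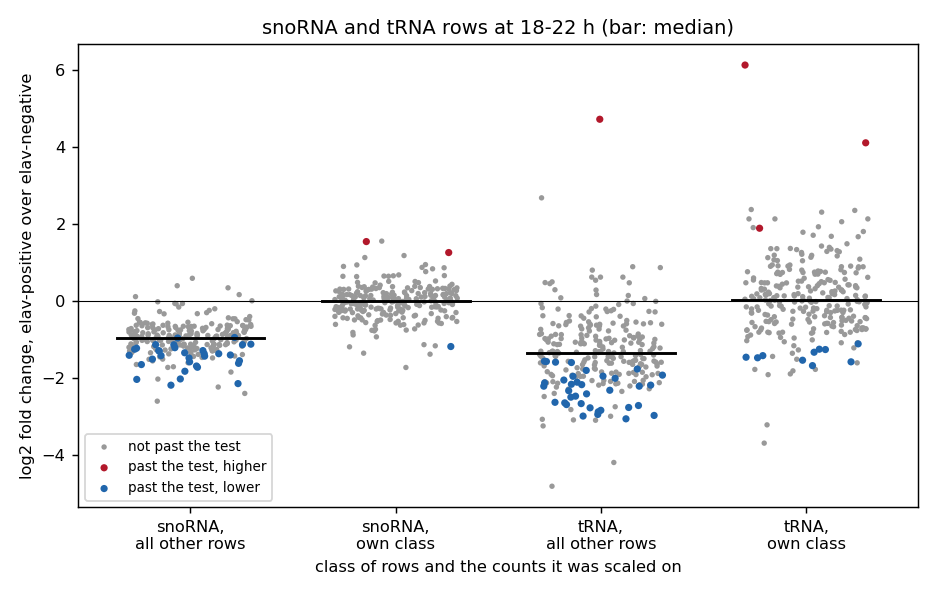
Points are tested snoRNA and tRNA rows, with the log2 fold change of elav-positive over elav-negative cells on the vertical axis, on the scale of all other rows or of the row's own class, and a bar at the median. Red and blue points passed the test, higher and lower. The median snoRNA lies at -0.96 on the first scale and at -0.02 on the second, the median tRNA at -1.35 and at 0.02.

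Of 515 long noncoding RNA rows tested, 11 were higher and 13 lower, smaller shares than the 8.83% and 5.24% over all other rows. lncRNA:CRG, which overlaps CASK on the same strand and is known from locomotor behaviour, had 38.3 and 35.7 CPM in the elav-positive libraries, against 0.877 and 1.45 CPM in the elav-negative libraries (log2 fold change 4.99 ± 0.85, adjusted p = 0.000335). It shared the direction of its neighbour, and reads from the overlap cannot be told apart. lncRNA:CR45109 lies within 2mit on the same strand and had 173 counts in elav-positive against 2 in elav-negative cells, a ratio of 85.1 (95% counting interval 23.2 to 708). lncRNA:CR44922 (3R:4375084-4377600, plus strand) had 20.1 and 17.8 CPM in elav-positive against 0.658 and 0.145 CPM in elav-negative libraries (log2 fold change 5.45, adjusted p = 0.00285). lncRNA:mimi, lncRNA:CR44024 and lncRNA:CR43900, which overlaps the calmodulin gene Cam, were higher as well, with log2 fold changes of 3.66, 2.67 and 2.46. On the lower side asRNA:CR45822, on the strand opposite the insulator gene CTCF, had 13.2 and 7.34 CPM in the elav-positive libraries, against 754 and 539 CPM in the elav-negative libraries (log2 fold change -5.97 ± 1.24, adjusted p = 0.00213). lncRNA:CR46084, on the strand opposite scrib, had 6.31 and 7.72 CPM in elav-positive against 216 and 231 CPM in elav-negative libraries (log2 fold change -4.99, adjusted p = 0.000503). The elav-negative libraries were high and close to each other in both. lncRNA:CR44979 had 3 counts in elav-positive against 237 in elav-negative cells, a ratio of elav-negative to elav-positive counts of 80.3 (95% counting interval 27.1 to 392). lncRNA:CR43260, lncRNA:CR42850 and lncRNA:CR44444 had log2 fold changes of -4.79, -3.69 and -3.45. lncRNA:CR45109 (adjusted p = 0.109) did not pass with elav-negative library 1 left out. lncRNA:CR44922 (adjusted p = 0.0504) did not pass with elav-negative library 2 left out. lncRNA:mimi (adjusted p = 0.0704 to 0.101) did not pass with elav-positive library 1 or elav-negative library 1 left out. lncRNA:CR44024 (adjusted p = 0.0639 to 0.23) and lncRNA:CR44444 (0.0772 to 0.313) did not pass with any 1 of the 4 libraries left out. lncRNA:CR43900 (adjusted p = 0.053 to 0.0559) did not pass with elav-positive library 1 or elav-negative library 2 left out. lncRNA:CR42850 (adjusted p = 0.0635 to 0.102) did not pass with elav-positive library 1 or 2 or elav-negative library 1 left out.

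The authors' deposited table for this pair of fractions lists 9661 pairs of a miRNA and a gene, with a log2 fold change of each. It names 65 miRNA hairpins, 30 with a positive and 35 with a negative value, and its header does not give the direction, which was read as elav-positive over elav-negative because all 65 then had the sign found here. Of the 65, 51 were called the same way here. In the authors' deposited table mir-1 stands at -2.80 and mir-1000 at 2.97, beside -2.36 and 3.45 from the fit used here. The median of the authors' deposited value minus the value here was -0.46 on the log2 scale, within -0.59 to -0.34. Hairpins called here and not in the authors' deposited table were mir-957, mir-965, mir-971, mir-1001, mir-1004, mir-125 and mir-4969. Each pair in the authors' deposited table joins a miRNA to a gene of the opposite sign: mir-1 is paired with 214 genes and mir-10 with 1. The authors' deposited table gives 1388 genes as higher and 1323 as lower. Of its 2711 genes, 2683 had a tested fragment row here and 2549 of these (95%) had the same sign, although the assay behind the gene values is not given in the sources used here. Among the 1023 of them called here, 1017 had the same sign (99.4%).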

How the data were processed

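Small RNA libraries were prepared with a NEBNext kit and sequenced as 51-base single reads, per the labels' protocols. Bowtie 1.1.2, SAMtools 1.8, featureCounts 1.5.1 and DESeq2, and the builds BDGP6 and dm6, are named in the submitters' processing notes. The deposited files hold estimated counts per gene over exons of Ensembl release 85, stranded, with reads of several matches shared as fractions, per the file headers. They were rounded to whole numbers, since 49.2% of the hairpin values in the 4 libraries were not whole. Gene names came from Ensembl release 115, which named 17253 rows and lacked 306.

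The 4 libraries were fitted with the other 16 of the series, as 10 groups of 2, in edgeR 4.0.16 (quasi-likelihood, TMM, filterByExpr, Benjamini-Hochberg threshold 0.05, R 4.3.3). Hairpins were scaled on hairpin counts and other rows on their own counts, without 59 rows that overlap a hairpin. A standard error is the fold change over the square root of F. DESeq2 1.42.0, other scalings, no filter, fewer libraries, a replicate block and leaving out each library were alternatives. A fit without 1 library leaves its fraction with 1, which is assumed to vary like the other groups. The steps were run on simulated counts with less spread than the data and no offset between libraries, so that run does not bear on such an offset.

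Named hairpins passed the test, had no overlap between fractions and reached a mean of 10 CPM in the higher fraction, up to 15 per direction, beside the 5 most abundant hairpins of each fraction and the members of gene lists. For other rows up to 12 protein-coding genes and 6 of each noncoding kind per direction were named. The fractions, lists and members were chosen with earlier results of these data known. Counting intervals are exact at 95%. The authors' deposited table for this comparison holds log2 fold changes and adjusted p-values and was only compared with. No sequences were used here.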

Additional observations from a re-analysis of the deposited data

Results flagged for a closer look

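For 27 hairpins called in the elav sort at 18 to 22 h, the log2 fold change of elav-positive over elav-negative cells differed from that of repo-positive over repo-negative cells of the same age, by edgeR's test of the difference in 1 fit over all 20 libraries. The sorts share no libraries. Values are the elav log2 fold change minus the repo log2 fold change.

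The elav value was above the repo value in 20 of them. Over all 148 hairpins the split of called differences was 20 above and 8 below, but 22 and 20 with DESeq2 and 3 and 27 with another TMM reference library, with the sign of each of the 27 kept. Those with a difference of at least 4 were mir-957 (7.57), mir-1004 (5.76), mir-927 (4.86), mir-87 (4.52), mir-932 (4.51), mir-219 (4.48) and mir-133 (4.27). The smaller ones were mir-1017 (3.92), mir-1000 (3.92), mir-993 (3.91), mir-981 (3.86), mir-987 (3.46), mir-263b (3.40), mir-999 (3.30), mir-7 (3.14), mir-315 (2.88), mir-190 (2.87), mir-124 (2.69), mir-276b (2.61) and mir-2c (2.10). In mir-957 the adjusted p was 0.0124, in mir-927 0.000256 and in mir-87 2.99e-05.

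The elav value was below the repo value in 7: mir-ban (-3.58), mir-279 (-2.69), mir-286 (-2.65), mir-184 (-2.15), mir-5 (-1.84), mir-9b (-1.80) and mir-312 (-1.60). In bantam (mir-ban) the log2 fold change was -2.06 in the elav sort and 1.52 in the repo sort, and in mir-279 it was -1.67 and 1.02. Differences in mir-927, mir-87, mir-993, mir-ban, mir-279, mir-286 and mir-276b passed in every fit with 1 of the 8 libraries of the 2 sorts left out, and the others did not in at least 1 such fit.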

How the results depend on the processing

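No called hairpin or row followed singly changed sign under any alternative. Of 2681 values for 60 hairpins and 123 other rows, 2357 stayed on their side of the threshold, 319 no longer passed and 5 passed newly. The 2357 include values of uncalled hairpins, mir-276a and mir-bft, whose sign was not followed where neither fit passed. Of the 319, 58 came from TMM factors over all rows, under which 0 hairpins of the elav sort passed and 0 differences between the elav and repo sorts, the cause of which was not tested. Leaving out 1 library gave 35 to 47 called hairpins, 788 to 1096 called other rows and 10 to 22 differences between the sorts (1 of the 4 repo libraries included, an alternative chosen after seeing the data). A fit of the compared libraries alone gave 2491 called other rows and 45 differences between the sorts, and leaving out elav replicate 2 of 6 to 8 h gave 46. The difference between the ages, with none called, had 4 calls under relative log expression factors, 7 with DESeq2, 2 without a filter, 2 without elav replicate 2 of 6 to 8 h, 1 without the 5 most abundant hairpins, and 26 or 11 with another TMM reference library. Same-numbered libraries of the 2 fractions were not shown to pair (correlation of their deviations 0.038 for hairpins and 0.116 for other rows). With the replicate block 64 hairpins and 1795 other rows were called, and 4 and 35 for the differences between ages and between sorts. With 2 libraries a fraction, low hairpins such as mir-125 rest on few counts.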

Other observations

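Hairpins of wide expression gave values on both sides. mir-14, which limits cell death and fat storage, had 11648 and 8924 CPM in the elav-positive libraries, against 8731 and 9236 CPM in the elav-negative libraries (log2 fold change 0.20 ± 0.30, adjusted p = 0.641), so its fractions overlapped. mir-305 stood at 216 and 157 CPM in elav-positive against 296 and 294 CPM in elav-negative libraries (log2 fold change -0.66, adjusted p = 0.169). DESeq2 and relative log expression factors called mir-305 lower, as did an elav-positive library of 6 to 8 h as the TMM reference. mir-14 was called lower with that reference and higher with total counts. Of 7 widely expressed hairpins mir-276b was higher and mir-184 and bantam were lower. Over all hairpins tested 24.3% were higher and 14.9% lower, so nothing is read from these counts.

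Of 6 tested hairpins of the mir-92 family, mir-310, mir-311 and mir-312 were lower, beside 14.9% of all hairpins tested. Their neighbour mir-313 (5.82 and 6.16 CPM in elav-positive against 9.31 and 10.7 CPM in elav-negative libraries, log2 fold change -0.73, adjusted p = 0.603) did not pass. The hairpins of the other loci did not pass either, and their fractions overlapped: mir-92a (992 and 702 CPM in elav-positive against 512 and 777 CPM in elav-negative libraries, log2 fold change 0.39, adjusted p = 0.449) and mir-92b (1334 and 845 CPM in elav-positive against 642 and 916 CPM in elav-negative libraries, log2 fold change 0.48, adjusted p = 0.409). With total counts, or a pros-negative library as the TMM reference, mir-92a and mir-92b were called higher. The difference between the loci was not tested. Of 6 hairpins from clusters known from testis and immunity none was called by edgeR or DESeq2, and none had an unadjusted p below 0.05. mir-34, known from ageing in the fly brain, was low, at 7.36 and 7.28 CPM in elav-positive against 17.5 and 12.5 CPM in elav-negative libraries (log2 fold change -1.03, adjusted p = 0.49).

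Of 5 long noncoding RNAs on a list of known ones, none was called by edgeR or DESeq2 and none had an unadjusted p below 0.05. lncRNA:roX1, of the dosage compensation complex, had 152 and 169 CPM in the elav-positive libraries, against 85.6 and 125 CPM in the elav-negative libraries (log2 fold change 0.61 ± 0.32, adjusted p = 0.225).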
